A study of Mus musculus with 8 samples.

Results

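Which genes responded to loss of Trim28 beyond their response to blockade of IL-2, and which did the reverse, was examined in activated mouse CD8+ T cells from spleens and lymph nodes. The genes were the 46556 listed in both deposited tables, of 58225 gene names in either, and 15460 of them passed a filter on low values (at least 10 in at least 2 of the 8 libraries) and were tested. The control group held Trim28fl/fl cells (labelled WT) and the knockout group Trim28-/- cells (labelled TRIM28 knockout), both activated in vitro for a time that the labels do not give. The untreated and anti-IL-2 groups held WT cells kept for 3 days with anti-CD3 and anti-CD28, the second with an antibody against IL-2. All 4 groups had 2 libraries of polyA RNA. The Cre line behind the deletion and the age of the mice are not in the labels, nor is it stated whether paired libraries came from separate mice or cultures, so a p-value here is set against how far 2 libraries of a group differ, and that spread may be purely technical. Each perturbation had its own experiment, its own controls and its own normalisation. What a perturbation did and what set its experiment apart (time, culture, mice) therefore cannot be told apart, and levels were never set against each other across the experiments.

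IL-2 is the growth factor that activated CD8+ T cells secrete and take up through a receptor of alpha, beta and gamma chains. The receptor acts through the kinases JAK1 and JAK3 on the transcription factor STAT5, which drives genes of killing, of cytokine response and of its own feedback inhibition. TRIM28 is a co-repressor that zinc finger proteins of the KRAB class bring to chromatin, where it works with the histone methyltransferase SETDB1. An effect that exceeds the other in one of these settings is the quantity described here: the knockout effect (knockout minus control) minus the blockade effect (anti-IL-2 minus untreated), each on log2(value + 1). A positive difference means that a gene rose more, or fell less, in the knockout than with anti-IL-2.

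Short promoter stretches of 7 genes show the DNA motifs of the programmes that follow. The sequences are the bases just before the RefSeq transcription start on GRCm38.p6, read in the direction of transcription, with motif matches in capitals. Ifit1, Isg15 and Oas3 encode antiviral proteins, and the capitals mark the interferon-stimulated response element (ISRE), searched as GAAA, any 2 bases and GAAA again on both strands. The 3 stretches lie at chr19:34640759-34640888 (plus strand), chr4:156200819-156200948 (minus strand) and chr5:120777660-120777789 (minus strand).
Ifit1: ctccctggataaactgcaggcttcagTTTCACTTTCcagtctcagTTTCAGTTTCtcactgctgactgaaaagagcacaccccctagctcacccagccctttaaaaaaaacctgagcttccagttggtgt
Isg15: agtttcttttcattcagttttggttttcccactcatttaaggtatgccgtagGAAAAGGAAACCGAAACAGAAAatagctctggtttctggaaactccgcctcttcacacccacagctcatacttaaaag
Oas3: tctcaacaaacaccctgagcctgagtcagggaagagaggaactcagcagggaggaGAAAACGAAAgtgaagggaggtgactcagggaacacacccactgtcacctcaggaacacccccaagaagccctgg
Gbp7 encodes a guanylate-binding protein induced by interferon gamma, and Socs3 a feedback inhibitor of cytokine receptors. Capitals mark the GAS motif bound by STAT proteins, searched as TTCNNNGAA on both strands, at chr3:142530206-142530335 (plus strand) and chr11:117969367-117969530 (minus strand).
Gbp7: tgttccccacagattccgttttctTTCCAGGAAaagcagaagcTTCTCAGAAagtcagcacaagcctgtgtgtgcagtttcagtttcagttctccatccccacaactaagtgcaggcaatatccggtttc
Socs3: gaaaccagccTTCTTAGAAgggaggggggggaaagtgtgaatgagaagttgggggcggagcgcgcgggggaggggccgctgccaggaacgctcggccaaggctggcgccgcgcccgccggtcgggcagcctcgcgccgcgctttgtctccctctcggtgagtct
Mcm6 encodes a subunit of the replicative helicase and Pola1 the catalytic subunit of DNA polymerase alpha. Capitals mark the E2F motif, searched as TTTGGCGC or TTTCCCGC on both strands, at chr1:128359706-128359835 (minus strand) and chrX:93632156-93632303 (minus strand).
Mcm6: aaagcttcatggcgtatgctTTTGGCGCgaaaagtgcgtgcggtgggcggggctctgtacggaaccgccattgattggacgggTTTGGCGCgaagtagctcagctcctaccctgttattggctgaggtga
Pola1: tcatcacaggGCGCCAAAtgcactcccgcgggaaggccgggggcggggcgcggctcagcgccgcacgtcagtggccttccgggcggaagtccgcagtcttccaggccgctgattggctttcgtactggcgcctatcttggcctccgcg

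Matches were counted in windows from 250 bases before to 50 after the start, which were at hand for 9651 of the 15460 tested genes. An ISRE was found in 3.88% of these genes, a GAS motif in 8.25% and an E2F motif in 3.53%. Over all 32851 windows of this length, the shares were 3.44%, 8.3% and 1.56%. Matching of letters is a description and not evidence that a factor bound.

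The depth and identity of the libraries were as follows. Reads recovered from the deposited values came to 13222831 to 13469789 per library in the knockout experiment and 16618750 to 17069569 in the blockade experiment. Replicates of a group differed by an SD of 0.297 to 0.317 on the log2 scale over the tested genes. The listed CD8 T cell markers were measured in all groups, with 11 of 11 tested and none at 0. Apart from Cd8a and Cd8b1, they are genes of T cells in general, such as Cd3e, Thy1 and Trac. The targeted gene, Trim28 (chr7:12999114-13031035, plus strand, GRCm38), had normalised read counts of 4262 and 4323 in control and 415 and 458 in knockout libraries, against 5774 and 5919.8 in untreated and 7926 and 8528 in anti-IL-2 libraries. Knockout libraries were thus 9.84-fold lower than their controls, while anti-IL-2 libraries were 1.41-fold higher than theirs. The difference of effects was -3.79 (SE 0.0765, adjusted p = 2.09e-07). Here and below, SE and adjusted p come from limma over all tested genes.

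The effects of the 2 perturbations were related but often unequal. At an adjusted p under 0.05, which is what "rose", "fell" and "passed" refer to, 4365 genes (28.2% of those tested) rose and 3427 (22.2%) fell in the knockout. With anti-IL-2, 4217 (27.3%) rose and 3980 (25.7%) fell. Of 5502 genes that changed in both, 4885 (88.8%) moved in the same direction and 617 in opposite directions. Across genes, the effects had a Pearson correlation of 0.51 over the tested genes and of 0.60 over the 12428 genes measured in both experiments, where genes are not independent replicates.

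The difference of effects passed in 4996 genes (32.3%), with 2945 (19.0%) higher and 2051 (13.3%) lower in the knockout. The median SE of the difference was 0.144 over the tested genes. In all 4996 genes, the effects computed from single replicates of one experiment did not overlap those of the other. These genes were called from the same values, so this separation is a description and adds no support. A difference of at least 1 on the log2 scale was reached by 772 genes upward (4.99%) and 531 downward (3.43%). By source, 728 genes rose and 463 fell in the knockout with no call for anti-IL-2, and 648 rose and 703 fell with anti-IL-2 with no call for the knockout. Another 388 were higher in the knockout and lower with anti-IL-2, and 229 the reverse. Where both moved alike, the pattern with most genes was a fall in both that was deeper with anti-IL-2 (622 genes), against 236 that fell further in the knockout. Among genes raised by both, 467 rose more in the knockout and 439 more with anti-IL-2. The remaining 73 passed for the difference but for neither effect alone.

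**Figure D1:**
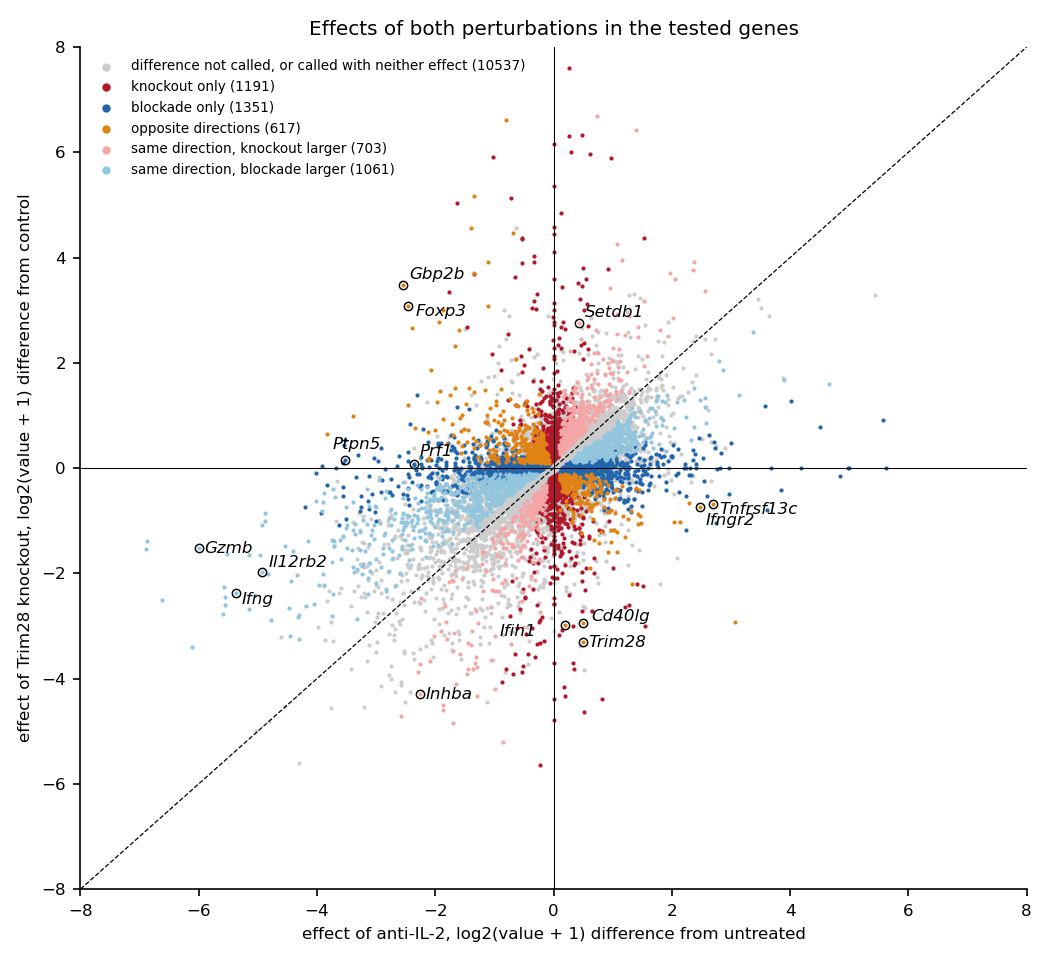
Effect of Trim28 knockout (y axis) against effect of anti-IL-2 (x axis) for the tested genes, each a log2(value + 1) difference of group means over 2 libraries, coloured by the pattern of calls; the dashed line marks equal effects. Gzmb, Ifng and Il12rb2 lie far to the left of that line, Gbp2b and Foxp3 above it in the upper left, and Trim28, Cd40lg and Ifih1 below it; points at heights above 4 include genes listed at 0 in the control.

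Grouped by function, the differences had clear directions in some programmes and none in others. The median difference was 0.041 over all tested genes. It was above 0.5 for chemokines and their receptors (1.46), inhibitory receptors (0.81), IL-2 and STAT5 targets (0.78), immediate early genes (0.61), genes of the IL-2 receptor and its kinases (0.60), NK and innate lymphocyte markers (0.57), effector transcription factors (0.54), cytokines (0.53) and cytotoxic genes (0.51). On the other side, markers of other cells had the lowest medians: CD4 T cell (-0.76), erythroid and stromal (-0.48) and B cell markers (-0.44). DNA replication (-0.39), chromatin loop proteins (-0.35), mitosis (-0.31) and heat shock chaperones (-0.30) followed. The CD4 T cell list had no common direction (3 higher, 3 lower of 7), and its median was -0.074 without a filter. Erythroid and stromal markers had 1 higher and 1 lower of 7, with medians of -1.01 to 0.019 when a library was left out. B cell markers had 1 higher and 5 lower of 9. For p53 targets, nuclear respiratory chain genes and MHC class I presentation the medians were close to 0 (0.0033, 0.019 and 0.017) and changed sign when a library was left out. Lists in which fewer genes passed than the 32.3% background were the nuclear respiratory chain, genes named Zfp and a number, germline genes, T cell receptor variable segments and the myeloid and erythroid and stromal markers. These libraries are bulk RNA, in which fewer cells of a type and less RNA per cell cannot be told apart.

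**Figure D2:**
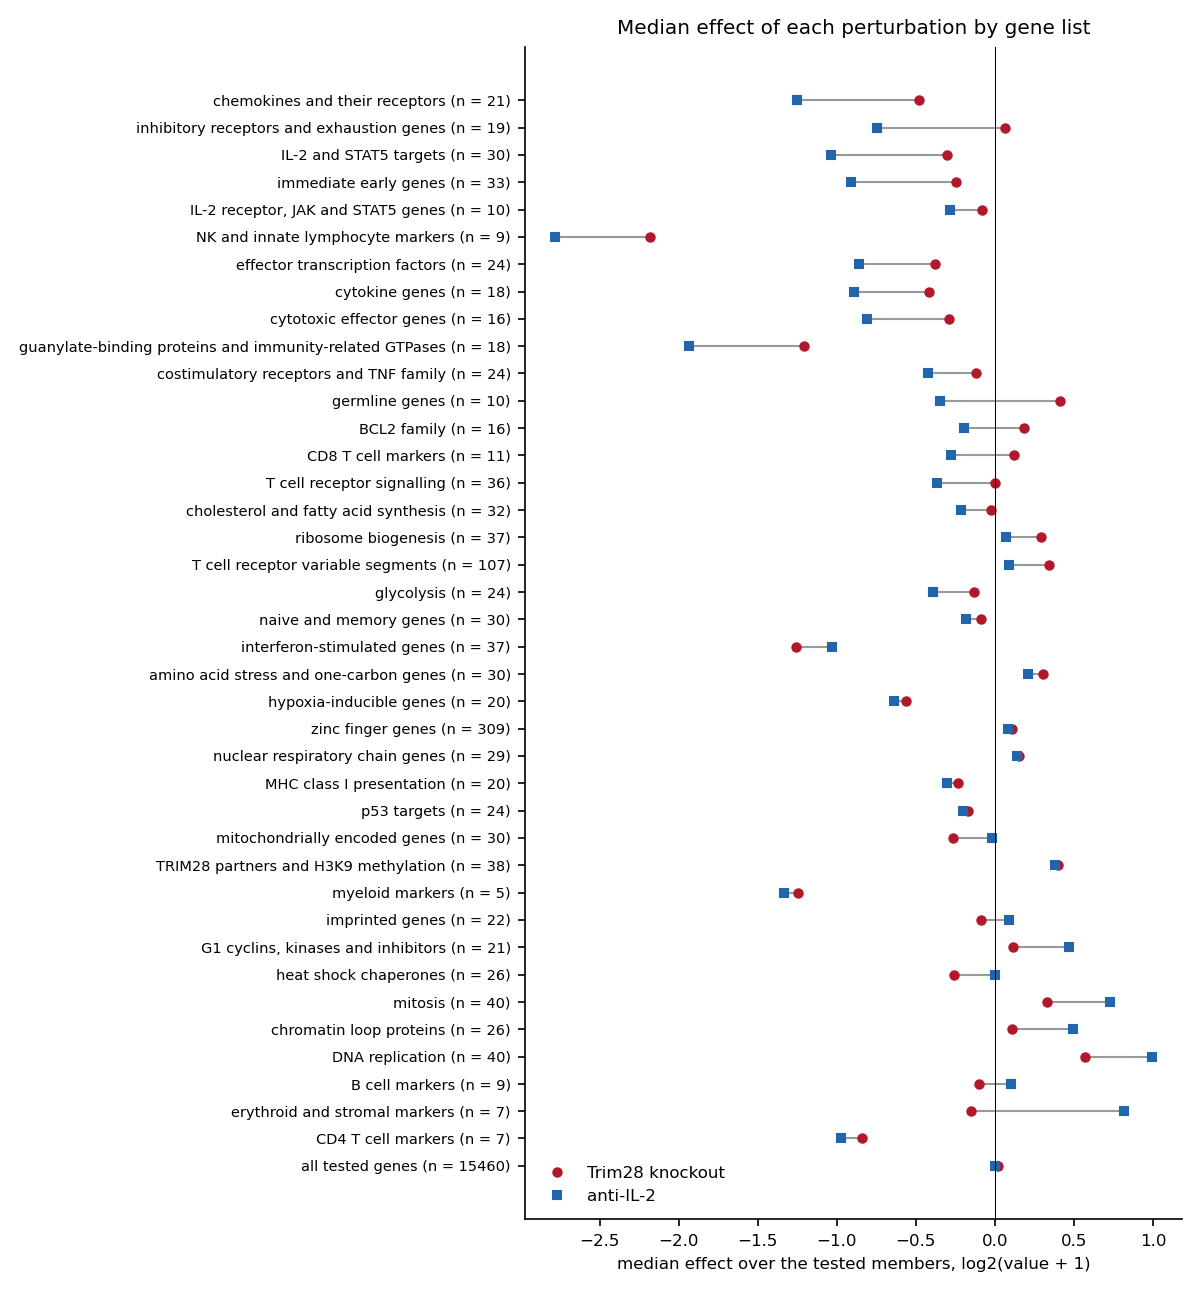
Median effect of Trim28 knockout (circles) and of anti-IL-2 (squares) over the tested members of each gene list, on the log2(value + 1) scale, ordered by the median difference, with all tested genes at the bottom. Squares lie left of circles for the effector lists and right of them for DNA replication, mitosis and chromatin loop proteins.

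Components of IL-2 signalling itself differed between the perturbations in every one of the 10 genes tested, 7 higher and 3 lower in the knockout. Of all tested genes, 32.3% passed. Il2 went from 9299 and 9217 to 5246 and 5410.2 in the knockout and from 17226 and 16739.7 to 18716 and 17835 with anti-IL-2. Both knockout libraries were below both controls, while anti-IL-2 libraries were above untreated ones by a small margin. The effects were -0.80 and 0.11, a difference of -0.90 (SE 0.0506, adjusted p = 1.37e-05). Il2rb, the beta chain of the receptor, fell in both, from 5745 and 5596 to 4464 and 4375 in the knockout and from 10555 and 10426 to 3432 and 3557 with anti-IL-2. The fall was 1.28-fold in the knockout and 3.00-fold with anti-IL-2 (difference 1.23, SE 0.0457, adjusted p = 2.4e-06). Il2ra, the alpha chain, was 1.11-fold lower in the knockout and 2.01-fold lower with anti-IL-2 (difference 0.85). Stat5a moved in opposite directions, rising 1.61-fold in the knockout and falling 1.23-fold with anti-IL-2 (difference 0.99, SE 0.0566). Exons of Stat3 overlap those of Stat5a on the other strand, and whether the counting used strand is not given in the sources used here. Exons of 34 of the 188 genes chosen for naming overlap another tested gene. In 32 the other gene lies on the opposite strand, among them Setdb1, Il12rb2, Cish, Cdc25b, Scap, Yes1, Cntnap1 and Foxp3, while Igtp overlaps Irgm2 and Bcl2a1b overlaps Gm29094 on the same strand.

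Established targets of IL-2 and STAT5 fell much further with anti-IL-2. Of 30 tested, 22 had a higher difference and 3 a lower one (83.3% called, against 32.3% of all tested genes), and the median effect was -0.31 in the knockout and -1.04 with anti-IL-2. Cish, a feedback inhibitor induced by STAT5, read 7373 and 7395 in control, 4455 and 4473 in knockout, 6571 and 6583 in untreated and 744 and 759 in anti-IL-2 libraries. It was 1.65-fold lower in the knockout and 8.76-fold lower with anti-IL-2 (difference 2.40, SE 0.0398, adjusted p = 1.16e-07). Socs3, whose promoter stretch is printed above, showed the same order, from 794 and 747 to 291 and 302 and from 690.1 and 587 to 58.2 and 37.4. Its falls were 2.60-fold and 13.4-fold (difference 2.37, SE 0.257, adjusted p = 0.000399). Il12rb2, a chain of the IL-12 receptor, fell 3.94-fold and 30.8-fold (difference 2.95, SE 0.226).

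Some other members of that list did not follow this order. Lta, which encodes lymphotoxin alpha, rose in the knockout from 1077 and 1037 to 1819 and 1786 and fell with anti-IL-2 from 4188 and 4336 to 778 and 915 (difference 3.10, SE 0.0988, adjusted p = 1.06e-06). Pim2, a survival kinase, rose 1.72-fold in the knockout and had an effect of 0.00 with anti-IL-2. Myc, the growth regulator, fell 1.74-fold with anti-IL-2 and had an effect of -0.02 in the knockout, from 15441 and 15894 to 15652 and 15298. In the 3 genes with a lower difference, Il18r1 (a chain of the IL-18 receptor) fell 2.77-fold in the knockout and 1.62-fold with anti-IL-2. Ccnd3 and Cdk6, which drive entry into the cell cycle, rose with anti-IL-2 (0.45 and 0.61) and had knockout effects of -0.03 and -0.06. Il7r, the receptor of the survival cytokine IL-7, did follow the order of Cish and fell in both (-2.88 and -3.32). Its difference was smaller (0.44, SE 0.118, adjusted p = 0.0244). A GAS motif stood in 10 of the 23 promoters at hand for this list (43.5%), and in 64 of 484 promoters (13.2%) of the genes that fell in both and further with anti-IL-2.

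**Figure D3:**
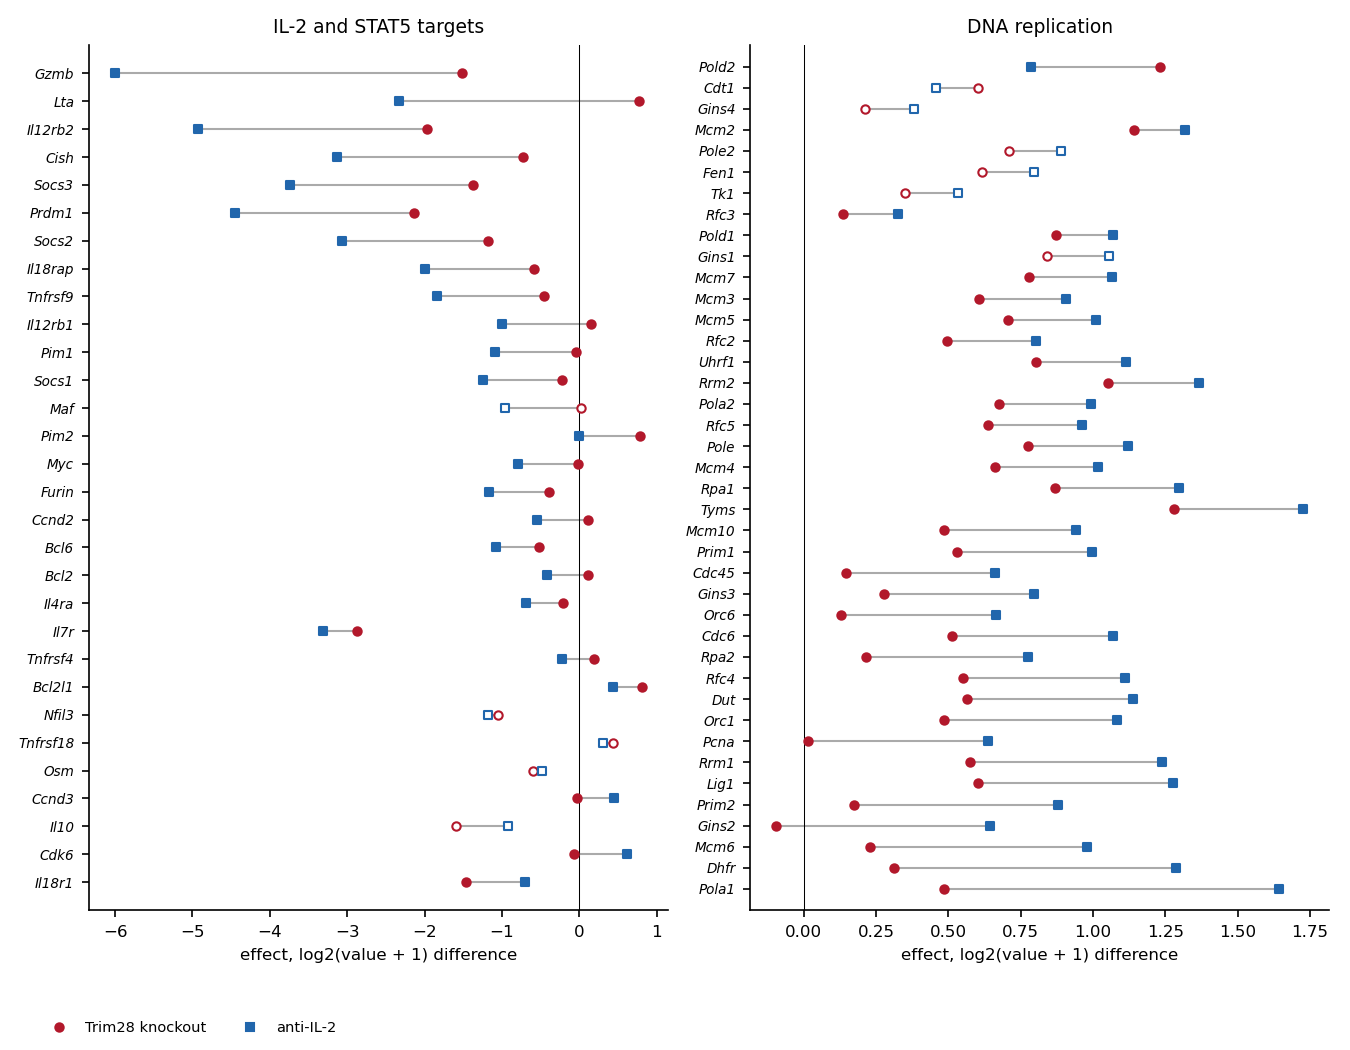
Effect of Trim28 knockout (circles) and of anti-IL-2 (squares) in each tested gene of the IL-2 and STAT5 list (left) and of the DNA replication list (right), on the log2(value + 1) scale; filled symbols mark genes whose difference passed. Gzmb has the widest gap on the left (-1.52 against -6.00), and on the right the squares lie beyond the circles in every gene except Pold2 and Cdt1.

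Among cytotoxic genes, 10 of 16 tested had a higher difference and none a lower one, against 19.0% and 13.3% of all tested genes. Gzmb (chr14:56258838-56262260, minus strand) encodes the killing protease granzyme B. It read 43376 and 41794 in control, 14845 and 14848 in knockout, 26683 and 25898 in untreated and 405 and 415 in anti-IL-2 libraries. Both treated groups lay wholly below their own controls. The falls were 2.87-fold and 64.1-fold, a difference of 4.48 (SE 0.0469, adjusted p = 6.85e-09). Prf1, the gene of the pore protein perforin, read 1923 and 1909 in control and 2061 and 2003 in knockout libraries, an effect that did not pass (0.08). With anti-IL-2 it fell from 4569 and 4490.3 to 864 and 897 (5.15-fold, difference 2.45, SE 0.0490). Fasl, a death ligand gene, fell 2.93-fold and 5.95-fold (difference 1.02). Tnfsf10, which encodes the death ligand TRAIL, rose in both, by 2.93 in the knockout and 1.07 with anti-IL-2 on the log2 scale (difference 1.86, SE 0.111). Markers of NK and innate lymphocytes followed in part, with 5 of 9 tested higher by the difference and none lower. Klrc1, Klrc2 and Il1rl1 fell in both and further with anti-IL-2, while Eomes and Gata3 rose in the knockout. Klrd1, Klrk1, Klri2 and Klre1 fell in both, and their differences did not pass. Klrk1 went from 1373 and 1404 to 175 and 136 in the knockout and from 2380 and 2377 to 348 and 341 with anti-IL-2. The summed level of the 19 listed markers was 6825 to 6895 in control, 1747 to 1759.7 in knockout, 9152 to 9291 in untreated and 1820.2 to 1947 in anti-IL-2 libraries, with Ncr1, Klra8, Klra9 and Zbtb16 at 0 in every library. Several of these markers are also expressed by activated CD8+ T cells, and their part in the result was not tested.

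Cytokine genes split into 11 with a higher and 4 with a lower difference, of 18 tested (83.3% called, against 32.3% of all tested genes). Ifng, the gene of interferon gamma, went from 16925 and 16658 to 3147 and 3317 in the knockout and from 15659 and 15030.1 to 362 and 375 with anti-IL-2. These were falls of 5.20-fold and 41.7-fold, with no overlap between groups (difference 3.00, SE 0.0553, adjusted p = 1.75e-07). Ltb, which pairs with lymphotoxin alpha, behaved like Lta: it rose 1.62-fold in the knockout and fell 2.96-fold with anti-IL-2 (difference 2.26, SE 0.0581). Csf2, the gene of the myeloid growth factor GM-CSF, did likewise (0.78 and -0.59, difference 1.36). Inhba, a subunit of activin A, was the cytokine gene with the largest difference in the other direction. Its values were 841 and 890.0 in control, 44.3 and 42.2 in knockout, 2522 and 2409 in untreated and 540.3 and 488 in anti-IL-2 libraries. It fell 20.0-fold in the knockout and 4.79-fold with anti-IL-2 (difference -2.03, SE 0.0947, adjusted p = 5.77e-06).

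Chemokines and their receptors had the highest median difference of the lists, with 14 of 21 tested higher and 2 lower, and 12 of the 14 by at least 1. Of all tested genes, 19.0% were higher, 13.3% lower and 4.99% higher by at least 1. Ccl3, an inflammatory chemokine gene, fell 1.49-fold in the knockout and 7.20-fold with anti-IL-2 (difference 2.27, SE 0.0752, adjusted p = 1.26e-06). Cxcr3, which guides effector cells to inflamed tissue, and Xcl1, which attracts cross-presenting dendritic cells, rose slightly in the knockout (0.19 and 0.37) and fell with anti-IL-2 (-2.11 and -1.35). Cxcr4, which retains cells in the bone marrow, was the exception with the largest size: 437 and 404 in control, 84.7 and 71.6 in knockout, 188 and 188 in untreated and 203 and 249 in anti-IL-2 libraries. Only its knockout effect passed (5.39-fold lower, difference -2.68, SE 0.174, adjusted p = 2.86e-05). Ccr6, a receptor of mucosal homing, rose in both, 7.35-fold and 4.10-fold (difference 0.83, adjusted p = 0.00451).

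Transcription factors of effector fate were higher by the difference in 14 of 24 and lower in 4 (75% called, against 32.3% of all tested genes). Id2, which supports effector survival, fell 1.28-fold in the knockout and 4.41-fold with anti-IL-2 (difference 1.78, SE 0.0616). Tbx21, the gene of the effector regulator T-bet, fell 1.85-fold and 3.13-fold (difference 0.76, adjusted p = 0.00028). Prdm1, the gene of the terminal effector regulator BLIMP1, read 50.7 and 42.6, then 10.8 and 8.82 in the knockout experiment. In the blockade experiment it read 28.1 and 30.9, then 0.955 and 0, which is a single read in the anti-IL-2 libraries together, so no fold is given. Its difference did not pass with DESeq2. Ikzf3, the gene of the lymphoid factor Aiolos, rose in the knockout (0.47) and fell with anti-IL-2 (-1.80). Its relative Ikzf2 (Helios) had the opposite pattern, at -0.84 and 0.90 (difference -1.74, SE 0.106, adjusted p = 2.09e-05).

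Naive and memory genes showed no common direction (13 higher, 10 lower of 30, median difference 0.12). Of them 76.7% passed, against 32.3% of all tested genes. Eomes, a memory and effector regulator, rose from 175 and 155 to 237 and 263 in the knockout and fell from 353 and 373 to 159 and 169 with anti-IL-2 (difference 1.74, SE 0.131). Ccr7, which directs cells into lymph nodes, rose 1.70-fold in the knockout and fell 1.33-fold with anti-IL-2 (difference 1.18). Tcf7, the gene of the memory factor TCF-1, rose in both and more with anti-IL-2 (0.34 and 0.83, difference -0.49, adjusted p = 0.000899). Actn1, an actin cross-linker gene high in naive cells, did likewise (0.31 and 1.90, difference -1.58, SE 0.0522).

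Receptors at the cell surface separated the perturbations as well. Of 19 inhibitory receptor and exhaustion genes, 13 had a higher and 3 a lower difference (84.2% called, against 32.3% of all tested genes). Their median effect was 0.063 in the knockout and -0.75 with anti-IL-2. Pdcd1, the gene of PD-1, rose 1.71-fold in the knockout, from 2345 and 2384 to 3967 and 4115. With anti-IL-2 it read 5128 and 5112, then 4809 and 5146, which overlap (difference 0.81, SE 0.0560). Lag3 rose in the knockout (0.40) and fell with anti-IL-2 (-0.67). Havcr2, the gene of TIM-3, fell in both and further with anti-IL-2, 4.75-fold and 17.8-fold (difference 1.75, SE 0.233). Among costimulatory genes, 16 of 24 were higher by the difference and 3 lower (79.2% called). Tnfrsf9, the gene of 4-1BB, fell 1.37-fold and 3.58-fold (difference 1.39, SE 0.0461). Cd40lg, the gene of CD40 ligand, ran the other way, from 346 and 365 to 41.4 and 49.0 in the knockout and from 338 and 290.4 to 427 and 455 with anti-IL-2 (difference -3.44, SE 0.156, adjusted p = 5.15e-06). Cd226, an activating adhesion receptor, rose 1.37-fold and 3.47-fold (difference -1.34).

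T cell receptor signalling and its immediate early genes had differences toward the knockout in most members. In the signalling list 20 of 36 were higher by the difference and 4 lower (66.7% called, against 32.3% of all tested genes). Its median effects were 0.0029 in the knockout and -0.37 with anti-IL-2. Malt1, a protease of the NF-kappaB branch, fell 1.14-fold and 2.53-fold (difference 1.15). Nfatc1, a target and mediator of calcium signals, fell by like amounts, -0.67 and -0.61, with a difference of -0.06 (95% interval -0.19 to 0.08). Immediate early genes, which are transcribed within minutes of a stimulus, were higher by the difference in 29 of 33 and lower in 3, and 18 of the 33 fell in both but further with anti-IL-2. Fosb, a subunit of the AP-1 factor, went from 2575 and 2628 to 1989 and 1942 and from 1443 and 1535 to 250.1 and 287 (difference 2.07, SE 0.0920, adjusted p = 4.88e-06). Egr2, a zinc finger factor induced by the receptor, fell 1.30-fold and 3.89-fold (difference 1.58).

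**Figure D4:**
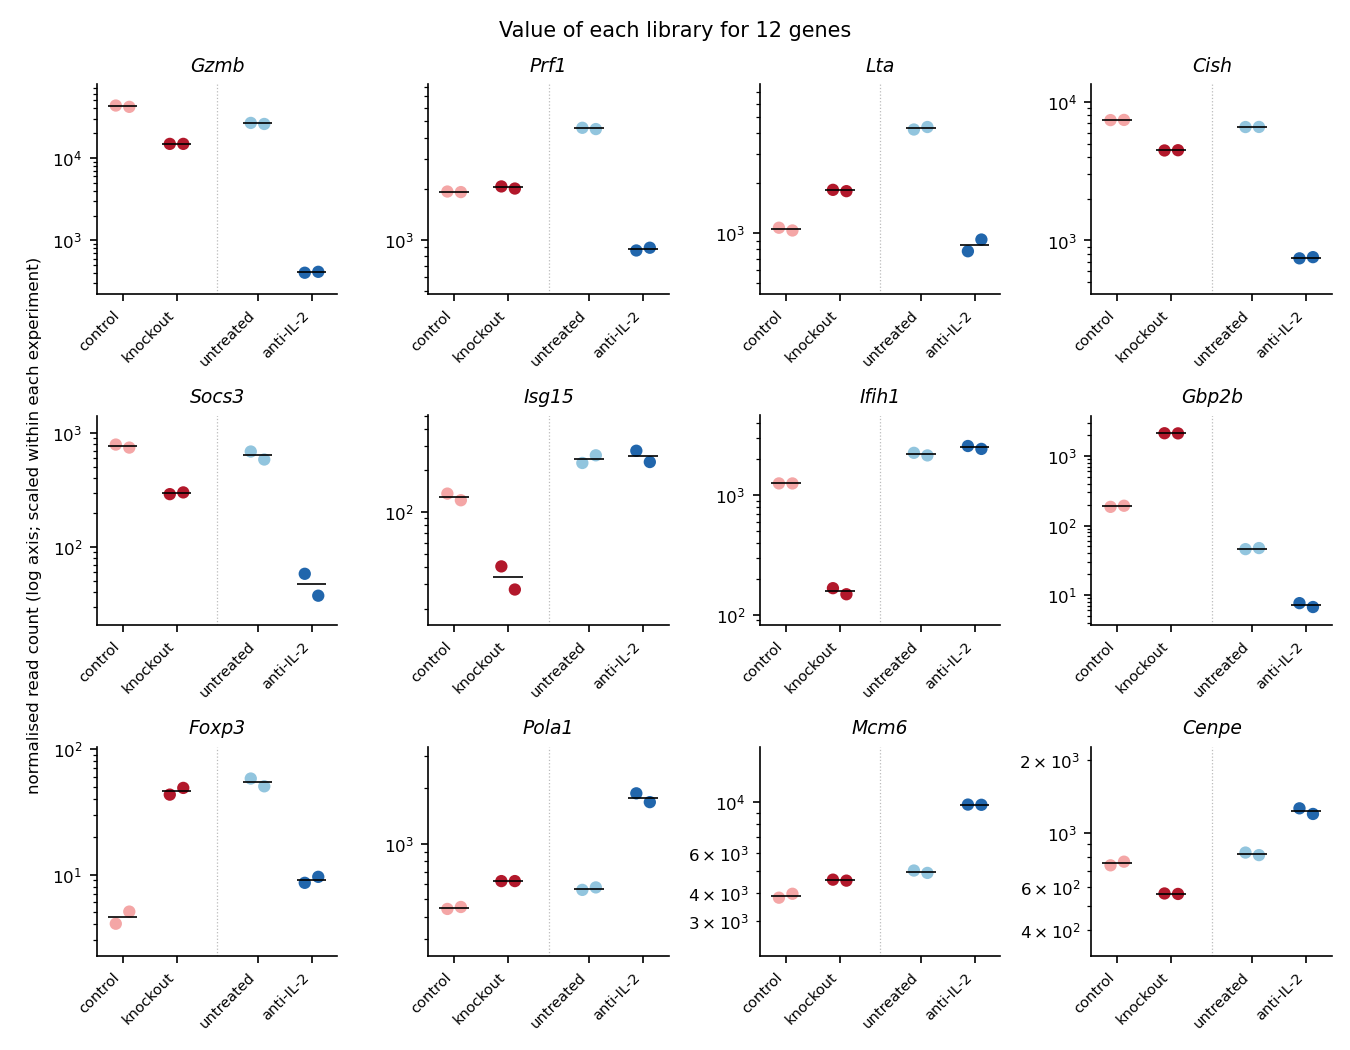
Normalised read count of each library (points, log axis) and group mean (bars) for 12 genes, with control and knockout left and untreated and anti-IL-2 right of the dotted line; values are scaled within each experiment and not comparable across the line. Gzmb, Cish and Socs3 fall further with anti-IL-2, Isg15 and Ifih1 fall in the knockout without a fall under anti-IL-2, and Gbp2b and Foxp3 move in opposite directions.

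Most interferon-stimulated genes fell with both perturbations, and the larger fall came from the knockout in some and from anti-IL-2 in others. In the knockout 31 of 37 tested fell and 1 rose, and with anti-IL-2 30 fell and 1 rose, with median effects of -1.26 and -1.03. Over all tested genes, 22.2% fell in the knockout and 25.7% with anti-IL-2. The difference was lower in 12 and higher in 11 (against 13.3% and 19.0% of all genes), and in the remaining 14 it did not pass. Among the 12, Ifih1, the sensor of viral double-stranded RNA (MDA5), read 1253 and 1252 in control, 166 and 148 in knockout, 2257 and 2148 in untreated and 2575 and 2435 in anti-IL-2 libraries. It fell 7.96-fold in the knockout and rose 1.14-fold with anti-IL-2 (difference -3.17, SE 0.0866, adjusted p = 4.76e-07). Isg15, a ubiquitin-like protein gene, went from 136 and 122 to 40.4 and 27.4 in the knockout, whereas 227 and 257 in untreated overlapped 278 and 230.2 in anti-IL-2 libraries (difference -1.98, SE 0.266, adjusted p = 0.00115). Ifit1, which binds viral RNA, went from 27.4 and 34.5 to 4.92 and 9.80 in the knockout. With anti-IL-2 it read 382 and 366 against 247 and 217, an effect of 0.69 that did not pass (difference -2.68, SE 0.382). Oasl1 had the same pattern at low levels (-1.83 and 0.34). Mx2 was listed at 0 in both knockout libraries against 36.5 and 35.5 in control, and at 37.2 and 25.9 against 54.0 and 60.8 with anti-IL-2.

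Among the 11 with a higher difference, falls were larger with anti-IL-2. Irf7, the factor that amplifies interferon production, fell from 219 and 238 to 97.5 and 92.1 in the knockout and from 711 and 690.0 to 113 and 124 with anti-IL-2 (2.41-fold and 5.93-fold, difference 1.30, SE 0.121). Oas3, an activator of RNA decay, fell 2.97-fold and 6.68-fold (difference 1.16, SE 0.104). For Usp18, which dampens interferon receptor signalling, the knockout effect did not pass (-0.52), and the fall with anti-IL-2 was 6.08-fold (difference 1.95, SE 0.370, adjusted p = 0.00575). An ISRE was present in 15 of the 27 promoters at hand for the list (55.6%), in 6 of 9 from the genes with a lower difference (66.7%) and in 4 of 8 from those with a higher one (50%). A GAS motif stood in 0 of 9 and 2 of 8, numbers too small to compare.

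Guanylate-binding proteins and immunity-related GTPases, a family that interferon gamma induces against intracellular pathogens, fell in nearly all members under both perturbations: 16 of 18 in the knockout and 17 with anti-IL-2. The difference was higher in 8 and lower in 2 (55.6% called, against 32.3% of all tested genes). Gbp7 fell from 2692 and 2692 to 1323 and 1273 and from 4349 and 4195 to 948 and 785 (2.07-fold and 4.93-fold, difference 1.25, SE 0.110). Igtp fell 2.36-fold and 4.49-fold (difference 0.93). Gbp2 had one of the smallest differences that passed, with falls of 5.55-fold and 4.74-fold (-0.23, adjusted p = 0.0111). Gbp2b (chr3:142594847-142619179, plus strand) and Gbp5 were the members that rose in the knockout. Gbp5 rose in both, from 1383 and 1378 to 2240.3 and 2071 and from 3024 and 2897 to 3590.3 and 3464 (difference 0.39, SE 0.0643). Gbp2b read 186 and 193 in control, 2129 and 2119 in knockout, 45.7 and 47.4 in untreated and 7.64 and 6.71 in anti-IL-2 libraries. Gbp2b rose 11.2-fold in the knockout and fell 6.49-fold with anti-IL-2 (difference 6.03, SE 0.149, adjusted p = 3.78e-07). Family members are similar in sequence, and how shared reads were assigned is not given in the sources used here. ISRE matches occurred in 10 and GAS matches in 6 of the 11 promoters at hand for the family (90.9% and 54.5%).

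**Figure D5:**
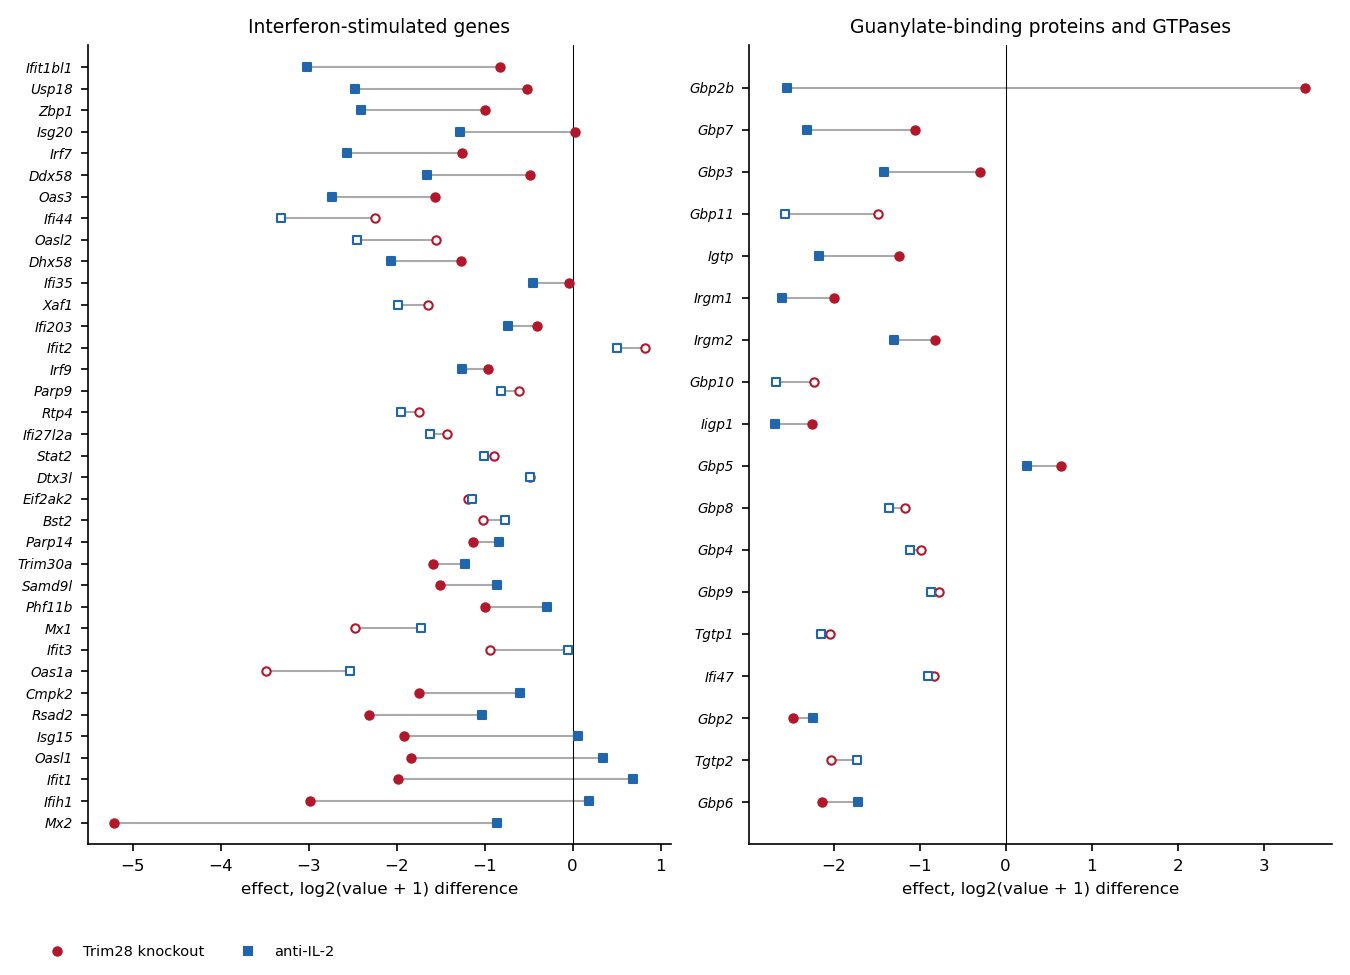
Effect of Trim28 knockout (circles) and of anti-IL-2 (squares) in the interferon-stimulated genes reported here (left) and each guanylate-binding protein or immunity-related GTPase (right), on the log2(value + 1) scale, ordered by the difference; filled symbols mark genes whose difference passed. The left panel runs from genes with a deeper fall under anti-IL-2 at the top to Isg15, Oasl1, Ifit1, Ifih1 and Mx2 at the bottom, and Gbp2b is the one gene on the right with effects on both sides of 0.

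MHC class I presentation genes had small differences of both signs, 7 higher and 5 lower of 20 (60% called, against 32.3% of all tested genes). H2-T23, the gene of the non-classical molecule Qa-1, had a knockout effect of -0.04 that did not pass and fell 2.04-fold with anti-IL-2 (difference 0.99, SE 0.0477). H2-Q4 fell more in the knockout (-0.69 and -0.25), although MHC genes are similar in sequence and can share reads.

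Genes of DNA replication rose with both perturbations, and more with anti-IL-2. In the knockout 36 of 40 rose, with anti-IL-2 all 40, and none fell in either. Of all tested genes, 28.2% and 27.3% rose. The difference was lower in 33 and higher in 1 (85.0% called, against 32.3% of all tested genes), with median effects of 0.57 and 0.99. Pola1 read 440.2 and 451 in control, 624 and 624 in knockout, 559 and 577 in untreated and 1879 and 1682 in anti-IL-2 libraries. It rose 1.40-fold and 3.13-fold (difference -1.16, SE 0.0813, adjusted p = 4.17e-05). Mcm6 rose from 3802 and 3955 to 4563 and 4518 and from 5005 and 4886 to 9758 and 9735 (difference -0.75, SE 0.0449). For Pcna, the clamp that holds polymerases on DNA, the knockout effect was 0.01 and the rise with anti-IL-2 1.56-fold (difference -0.62). Pold2, a subunit of DNA polymerase delta, was the gene with a higher difference, rising 2.35-fold in the knockout and 1.73-fold with anti-IL-2 (0.45, adjusted p = 0.00767). An E2F motif, as printed above for Mcm6 and Pola1, stood in 11 of 32 promoters of the list (34.4%). It stood in 39 of 346 promoters (11.3%) of genes that rose in both and more with anti-IL-2, and in 11 of 378 (2.91%) of those that rose more in the knockout.

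Mitotic genes followed in most but not all members, with 23 lower and 7 higher by the difference of 40 tested. That is 75% called, against 32.3% of all tested genes. Top2a, which untangles chromosomes, read 5064 and 5228 in control and 5288 and 5101 in knockout libraries and rose from 6459 and 6456 to 13479 and 12392 with anti-IL-2 (difference -0.99, SE 0.0627). Cenpe, a motor protein gene of the kinetochore, fell in the knockout (-0.41) and rose with anti-IL-2 (0.59). Among the 7 that ran opposite were Cdc25b and Cenpa. Cdc25b, a phosphatase that starts mitosis, rose 5.49-fold in the knockout, from 331 and 331 to 1879.9 and 1758, and 1.39-fold with anti-IL-2 (difference 1.98, SE 0.0650). Cenpa, the centromeric histone gene, rose in the knockout (0.66) and fell with anti-IL-2 (-0.22). Chromatin loop proteins, meaning cohesin, condensin and CTCF genes, were lower by the difference in 17 of 26 and higher in 1 (69.2% called). The condensin genes Smc2 and Ncapg2 had knockout effects of 0.04 and 0.05 and rose with anti-IL-2 (0.84 and 0.91). Among G1 regulators 8 of 21 passed, 6 lower and 2 higher (38.1%, near the 32.3% of all tested genes), and the lower count was 10 to 11 with edgeR, a pseudocount of 5 or the filter met in each experiment. Ccnd2, a D-type cyclin gene, rose slightly in the knockout (0.11) and fell with anti-IL-2 (-0.55), a difference of 0.66 (SE 0.0437).

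Ribosome biogenesis, which supplies growing cells with ribosomes, was higher in the knockout by small margins. Of 37 genes, 28 rose and 2 fell in the knockout against 13 and 7 with anti-IL-2. Of all tested genes, 28.2% rose and 22.2% fell in the knockout, and 27.3% and 25.7% with anti-IL-2. The difference was higher in 21 and lower in 3 (64.9% called, against 32.3% of all tested genes), with a median of 0.18. Fbl, which methylates ribosomal RNA, rose 1.36-fold in the knockout, from 1891 and 1865 to 2551 and 2575, with 1978 and 1994 against 1904 and 1982 in the blockade experiment (difference 0.48, SE 0.0471). Noc4l rose in the knockout (0.37) and fell with anti-IL-2 (-0.21). None of the 37 differed by 1 or more.

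Metabolic lists had mixed directions. Among 24 glycolysis genes, 10 were higher by the difference and 6 lower (66.7% called, against 32.3% of all tested genes). Aldoc, an aldolase gene, fell from 1206 and 1197 to 440.2 and 419 in the knockout and from 1629 and 1517 to 62.0 and 71.9 with anti-IL-2 (2.80-fold and 23.5-fold, difference 3.05, SE 0.109). Pdk1, which keeps pyruvate out of mitochondria, fell more in the knockout (-1.03 and -0.25, difference -0.78). Slc2a1, the main glucose transporter gene, changed in neither (0.064 and 0.082), with a difference of -0.02 (95% interval -0.19 to 0.15). Hypoxia-inducible genes fell under both, 18 and 15 of 20, against 22.2% and 25.7% of all tested genes. Their difference was higher in 8 and lower in 5, with a median of 0.065. Egln3, an oxygen sensor gene, fell 4.12-fold and 20.3-fold (difference 2.30, SE 0.104). Kdm3a and Adm, among the 5 lower, fell in the knockout alone by call. In cholesterol and fatty acid synthesis, 11 of 32 were higher and 4 lower (46.9% called). Scap, which escorts the factor SREBP to its activation, rose in the knockout from 1198 and 1152 to 3321 and 3363, with 2053 and 2019 against 1957 and 2129 in the blockade experiment (difference 1.50, SE 0.0645). Of 30 amino acid stress and one-carbon genes, 17 rose and 8 fell in the knockout and 15 rose and 12 fell with anti-IL-2. Of all tested genes, 28.2% rose and 22.2% fell in the knockout, and 27.3% and 25.7% with anti-IL-2. The difference was higher in 9 and lower in 5 (46.7% called). Among the members that fell were Cth, of cysteine synthesis, which fell more in the knockout (-1.81 and -0.82), and Sesn2, a nutrient sensor gene, which fell with anti-IL-2 alone by call (-1.02, knockout effect -0.07). Of 29 nuclear respiratory chain genes 20.7% passed, below the background of 32.3%.

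Stress and survival genes had differences of both signs. Heat shock chaperones, which refold proteins, were lower by the difference in 15 of 26 and higher in 2 (65.4% called, against 32.3% of all tested genes). Dnaja1, a co-chaperone gene, fell 1.81-fold in the knockout, from 3593 and 3643 to 1961 and 2031, with an anti-IL-2 effect of 0.00 (difference -0.86, SE 0.0703). Hspa8, the constitutive partner, fell more in the knockout (-0.77 and -0.42). Hspa1b, which has the near-identical copy Hspa1a, fell 14.8-fold and 4.88-fold (difference -1.60, adjusted p = 0.01), a call lost without a filter on low values and in some fits that left out a library. For p53 targets, 9 were higher and 8 lower of 24 (against 19.0% and 13.3% of all tested genes), and the higher count was 5 with DESeq2. Ccng1 and Phlda3, induced after DNA damage, fell in the knockout (-0.83 and -0.38) and rose with anti-IL-2 (0.33 and 1.40). In the BCL2 family, 8 of 16 were higher and 3 lower (68.75% called), with a median difference of 0.38. Among the lower ones, Bbc3, the gene of the death activator PUMA, rose with anti-IL-2 from 243 and 227 to 473 and 539, with a knockout effect of -0.10 that did not pass (difference -1.20, SE 0.113). Pmaip1, the gene of NOXA, fell more in the knockout (-1.03 and -0.25). Among the higher ones, the survival gene Bcl2 fell with anti-IL-2 (-0.42) with a knockout effect of 0.12 that did not pass.

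Genes of the TRIM28 pathway itself rose under both perturbations in most members, 30 of 38 each, against 28.2% and 27.3% of all tested genes. By the difference, 5 were higher and 12 lower (44.7% called, against 32.3% of all tested genes). Setdb1 rose from 945 and 906 to 6349 and 6245 in the knockout and from 1645 and 1693 to 2272 and 2227 with anti-IL-2. The rises were 6.80-fold and 1.35-fold (difference 2.33, SE 0.0505, adjusted p = 2.2e-07), and Setdb1 lies at chr3:95323525-95357202 on the minus strand with exons of Cers2 and Gm37500 overlapping it on the other strand. Zfp445, a zinc finger gene that guards imprints, rose 1.85-fold in the knockout with an anti-IL-2 effect of 0.06. Cbx5, the gene of the heterochromatin protein HP1 alpha, rose more with anti-IL-2 (0.75 and 1.51). Of 309 tested genes named Zfp and a number, 44 were higher and 24 lower (22.0% called, under the 32.3% of all genes). Imprinted genes passed in 9 of 22, 3 higher and 6 lower (40.9%, near the 32.3% of all tested genes). The lower count was 2 with DESeq2. Plagl1, a zinc finger gene of growth control, fell 3.45-fold in the knockout, from 1247 and 1308 to 359 and 380.4, and 1.28-fold with anti-IL-2 (difference -1.43, SE 0.0682). M1ap, a meiosis gene and 1 of the 10 germline genes tested, rose in the knockout from 11.2 and 12.2 to 269 and 290.2 and fell slightly with anti-IL-2 from 23.9 and 17.5 to 10.5 and 14.4 (difference 5.16, SE 0.327).

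Several of the largest differences lay outside the lists. In the knockout alone by call, Yes1, a Src-family kinase gene, rose 13.5-fold, from 44.6 and 80.1 to 849.8 and 837, with 148 and 125 against 93.5 and 98.9 in the blockade experiment (difference 3.30, SE 0.332). Ctse, a protease gene, rose 11.9-fold (difference 3.11). Shtn1, a cytoskeletal adaptor gene, fell from 97.4 and 94.3 to 4.92 and 6.86 (16.3-fold, difference -4.17, SE 0.250). Dnah12 and Ak7, genes of motile cilia, were listed at 0 in both control libraries against 105 and 90.2 and 106 and 99.0 in the knockout. In the blockade experiment Dnah12 read 22.0 and 19.2 against 33.3 and 40.2, and Ak7 15.3 and 17.3 against 9.35 and 9.27. Ptpn5, a tyrosine phosphatase gene, fell with anti-IL-2 alone by call, from 1482 and 1409.9 to 118 and 129, with 875 and 808 against 754 and 750.1 in the knockout experiment (difference 3.70, SE 0.0894, adjusted p = 3.46e-07). Zfp608 fell 18.0-fold with anti-IL-2 and had a knockout effect of -0.75 that did not pass. Cntnap1, the gene of an axonal adhesion protein, rose 7.30-fold with anti-IL-2 and not by call in the knockout (0.28). Lgals3, the gene of galectin-3, fell in both, 2.01-fold and 29.9-fold (difference 3.87, SE 0.111).

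Opposite movements included the regulatory T cell gene Foxp3 and the receptors Ifngr2 and Tnfrsf13c. Foxp3, the master regulator gene of regulatory T cells and a STAT5 target there, rose in the knockout from 4.06 and 5.07 to 43.3 and 49.0 and fell with anti-IL-2 from 58.2 and 50.5 to 8.59 and 9.59. The 10.1-fold rise and 5.98-fold fall gave a difference of 5.54 (SE 0.314, adjusted p = 1.45e-05), and exons of Ccdc22, Gm36995 and Ppp1r3f overlap the gene on the other strand. Summed markers of CD4 T cells, 7 of 12 of them tested and with Il5 at 0 throughout, were lower in the knockout and with anti-IL-2 than in their controls. They stood at 21073 to 21123 in control, 15546 to 15712 in knockout, 19836 to 20499.7 in untreated and 11232 to 11880.2 in anti-IL-2 libraries. Most of that sum came from Tnfsf8, the gene of CD30 ligand, which went from 14271 and 14147 to 9678 and 9599 and from 16041 and 15452 to 8254 and 7788. Cd40lg and Ikzf2, also on the list, rose with anti-IL-2, and Cd4 itself was listed at 4.06 and 0 in control, 7.88 and 6.86 in knockout, 4.16 and 1.03 in untreated and 9.55 and 6.71 in anti-IL-2 libraries. Their part in the result was not tested. Ifngr2, the signalling chain of the interferon gamma receptor, fell in the knockout from 60.9 and 50.7 to 32.5 and 33.3 and rose with anti-IL-2 from 29.1 and 31.9 to 173 and 175 (difference -3.21, SE 0.216, adjusted p = 3.23e-05). Tnfrsf13c, the gene of the BAFF receptor, fell 1.60-fold and rose 6.51-fold (difference -3.37, SE 0.214). That receptor is also a B cell gene. Summed B cell markers, 9 of 16 of them tested and none at 0 throughout, were 3318 to 3366 in control, 3544 to 3569 in knockout, 4486 to 4506 in untreated and 5633 to 6064 in anti-IL-2 libraries, and their part was not tested.

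Like responses were measured in other genes. In 3121 genes both effects passed in the same direction and the difference did not, 1811 of them up and 1310 down, and both effects reached at least 1 in 111 and 261 of these. Slfn1, a regulator of T cell quiescence, fell 3.82-fold in each experiment, from 388 and 384 to 93.6 and 109 and from 816 and 819.8 to 218 and 211. Its difference was 0.00 (95% interval -0.26 to 0.26). Acss2, which makes acetyl-CoA from acetate, fell 2.47-fold and 2.49-fold (interval -0.27 to 0.30). Recql4, a helicase gene of replication, rose 2.30-fold and 2.32-fold (interval -0.42 to 0.38), and Nckipsd, an adaptor gene of the cytoskeleton, rose 2.06-fold and 2.04-fold (interval -0.37 to 0.38). These intervals leave room for differences of the size that passed in better measured genes.

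Marker lists of the sorted cells and of other cells were followed through all groups. CD8 T cell markers summed to 59127 to 61222 in control, 61533 to 63175 in knockout, 88665 to 90409.8 in untreated and 69289 to 72193.5 in anti-IL-2 libraries. Their difference was higher in 9 of 11 and lower in none (81.8% called, against 32.3% of all tested genes). Cd8a rose in the knockout (0.25) and fell with anti-IL-2 (-0.40). Cd8b1, the other CD8 chain, was lower in both perturbed groups, and its difference did not pass. It went from 4104 and 3915 to 2828 and 2922 in the knockout and from 5325 and 5227 to 3569 and 3705 with anti-IL-2. Myeloid markers, 5 of 16 tested and with Siglech at 0, were low and fell in both experiments, from 286 to 339 in control to 149.7 to 166 in knockout and from 419 to 442 in untreated to 121 to 122 in anti-IL-2 libraries. Most of the myeloid sum came from Cd68. Erythroid and stromal markers, 7 of 15 tested and with 1 at 0 in every library, summed to 939 to 1195, 1564 to 1580.2, 1406 to 1444 and 1367 to 1387 in the same order. Most of that sum came from Epcam and Pecam1, which both rose in the knockout and moved in opposite directions with anti-IL-2. Epcam went from 840 and 800 to 195 and 181 with anti-IL-2, and Pecam1 from 487 and 466 to 995 and 957. H2-Ab1, an MHC class II gene of antigen-presenting cells, fell further with anti-IL-2 (-4.96) than in the knockout (-1.65). Other class II genes did not share that fall with anti-IL-2. Cd74 went from 688 and 690.0 in untreated to 934 and 1024 in anti-IL-2 libraries. H2-Aa, at low levels, read 7.27 and 10.3, then 7.64 and 11.5. Cd79b, a B cell receptor subunit, fell in the knockout (-1.66), and its difference of -2.05 did not pass with DESeq2. The part of these cells in the results above was not tested. Of 107 T cell receptor variable segments, 2 passed (1.87%), both higher.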

How the data were processed

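RNA-seq of mouse CD8+ T cells was deposited as 2 tables of normalised values, with 4 libraries each. The authors' deposited values are a signal in which each library's gene read counts were divided by its size factor. The submitters' processing notes name the build mm10 and the tools HISAT2 2.2.1, Trim Galore 0.4.4, DESeq2 and StringTie 2.1.4. The read counter, annotation and filters are not given in the sources used here. All values came out as whole reads after division by the worth of 1 read (tolerance 0.001). The headers of the anti-IL-2 columns carry no replicate numbers (called A and B here), and 1 of them ends in the letter r, whose meaning is not given.

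Genes in both tables that reached 10 in 2 or more of the 8 libraries were tested with limma 3.58.1 (R 4.3.3). The fit used log2(value + 1) with a mean-variance trend, 4 group means and 4 residual degrees of freedom. P-values were adjusted by the Benjamini-Hochberg method over all 15460 genes, with calls at 0.05. The log2(value + 1) scale understates changes of low genes. Folds are ratios of group means of the deposited values.

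The members and lists were chosen with earlier results of these data known. Named genes were Trim28, Il2, Il2ra and Setdb1, the 6 with the largest difference per pattern, up to 4 called genes per list, and the 6 per direction most alike in both. Isg15, Oas3, Socs3, Pim2, Myc, Il18r1, Ccnd3, Il7r, Fasl, Csf2, Ccl3, Xcl1, Ccr6, Tbx21, Ccr7, Tcf7, Pdcd1, Lag3, Nfatc1, Irf7, Usp18, Gbp2, Gbp5, Pcna, Pold2, Slc2a1, Hspa8 and Bcl2 fall outside that rule and were chosen after their values were seen. Gene places and overlaps are from GENCODE M21 on GRCm38, the assembly of mm10, and promoters from RefSeq on GRCm38.p6. Control and knockout libraries share replicate numbers, and the main fit did not pair them. Same-numbered deviations had a correlation of 0.0070 over the tested genes. Read sampling adds to such deviations in low genes, so this value cannot decide whether the numbers mark pairs.

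Alternatives were edgeR 4.0.16 and DESeq2 1.42.0 on recovered reads, other scalings, a pseudocount of 5, other filters, a replicate block and leaving out each library. Data for the difference of effects were also simulated with 15215 genes. Of differences of 2 and 1, 94% and 74% were recovered, and of those of -2 and -1, 80% and 56%. Among 15015 unchanged genes 4 were called. Each size was given to 50 genes, and all others had no effect in either experiment, whereas 32.3% of genes passed in the data. The adjustment was thus stricter in the simulation, and its spread was that between the 2 libraries of a group. These shares therefore do not carry over to the data. A few genes are not reported here.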

Additional observations from a re-analysis of the deposited data

How the results depend on the processing

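Against the 2945 higher and 2051 lower differences of the limma fit, DESeq2 called 1707 higher and 1177 lower differences, and edgeR 2835 and 2246. By pattern DESeq2 gave 413 and 284 for the knockout alone (higher, lower), 398 and 464 for anti-IL-2 alone, 200 and 117 for opposite directions, 167 and 224 for genes higher in both (knockout or anti-IL-2 larger) and 129 for genes lower in both with the knockout larger. Counts by list with DESeq2 were 7 naive and memory genes higher, 2 respiratory chain genes lower, 5 p53 targets higher, 2 imprinted genes lower, 1 germline gene higher, 1 B cell marker lower, 3 NK markers higher and 25 zinc finger genes higher. A difference of at least 1 left 772 higher and 531 lower, and by pattern 131 and 158, 197 and 237, 140 and 86, 45 and 23, and 58 and 212 (lower in both, knockout or anti-IL-2 larger). The G1 list had 11 lower genes with edgeR, 10 with a pseudocount of 5 and 10 with the filter met in each experiment. Germline genes higher numbered 1 with edgeR and 1 with that filter, NK markers higher 3 without a filter, and T cell receptor segments higher 4 with edgeR, 4 with the pseudocount of 5 and 6 without a filter.

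Leaving out 1 library gave 2140 to 3233 higher and 1402 to 2208 lower differences. The ranges were 485 to 815 and 299 to 533 for the knockout alone, 135 to 277 for opposite and lower in the knockout, 255 to 437 and 258 to 469 for higher in both, and 132 to 225 and 412 to 728 for lower in both. By list they were 8 to 14 naive and memory genes higher, 2 to 3 respiratory chain genes lower, 7 to 12 TRIM28 partners lower, 3 to 7 imprinted genes lower, 2 to 5 B cell markers lower, 3 to 5 NK markers higher, 1 to 2 erythroid and stromal markers higher, 29 to 42 zinc finger genes higher and 1 to 4 receptor segments higher. Median differences that changed sign were those of MHC class I (-0.033 to 0.067), the respiratory chain (-0.035 to 0.036), p53 targets (-0.080 to 0.076) myeloid markers (-0.47 to 0.23, and 0.35 with the filter met in each experiment), erythroid and stromal markers (-1.01 to 0.019), mitochondrially encoded genes (-0.18 to 0.011) and germline genes (-0.065 with the pseudocount of 5, -0.062 with that filter). The cause was not tested.

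With the replicate number as a block in the knockout experiment, 2532 and 1746 differences passed. Of 176 called genes among the 188 chosen by rule, 157 passed under every alternative run and none changed sign. The other 19 included Prdm1, S1pr1, Hspa1b, Cd79b and Ighd, of which Hspa1b lost its call without a filter and without control 2, knockout 1 or knockout 2. Depth limits the low genes: a group at 0 or at single reads, as for Prdm1 with anti-IL-2 or Mx2 in the knockout, gives no fold.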
